A study of Mus musculus with 4 samples.

Results

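The immunoglobulin variable (V) segment genes are the inherited gene pieces that encode most of the antigen-binding part of antibodies. They were taken here as every gene whose symbol in the deposited count file of wild-type (WT) colon replicate 1 starts with Ighv, Igkv or Iglv followed by a digit, which gave 167 of the 19308 genes listed for all 4 libraries. Of these, 84 belong to the heavy chain (Ighv), 80 to the kappa light chain (Igkv) and 3 to the lambda light chain (Iglv). The libraries were made from total RNA of colonic mucosa, 2 from WT mice labelled C57BL/6 and 2 from Itch knockout (Itch KO) mice, which lack the gene of an E3 ubiquitin ligase. Sample labels give the state of inflammation to all 4, the controls included, while in the protocol only the mucosa of the knockout is called inflamed. Neither the strain background of the knockout mice nor the age or sex of the animals is given in the sources used here. The labels also do not say whether replicates are separate animals, and p-values therefore reflect no more than the spread among these 4 libraries. The comparison asks how V segment transcripts in Itch KO mucosa differ from those in WT mucosa.

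Each developing B cell joins 1 V segment to a joining segment, and in the heavy chain also to a diversity segment, by V(D)J recombination, and splices the product to a constant gene. A V segment transcript therefore reports which segments the B cells and plasma cells of a tissue have rearranged, and plasma cells carry far more of it per cell than resting B cells. In the normal colon most plasma cells of the mucosa make IgA, while follicles of the gut wall hold B cells that are mainly IgM positive. In bulk RNA fewer cells and less RNA per cell cannot be told apart.

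In the GENCODE M21 annotation (GRCm38) 161 of the 167 genes were found, all with the biotype of a V gene. The placed heavy chain segments lay on the minus strand at chr12:113588267-116000461, the kappa segments on both strands at chr6:67555497-70704177, and the lambda segments on the minus strand at chr16:19085017-19260859. Their annotated coding sequences were 294 to 394 bases long with a median of 351. Many segments are recent copies of each other: 76 lay in 28 groups of at least 95% identity, the largest with 10 kappa segments of the Igkv4 family, and treating each group as 1 feature left 119. Reads from such copies may be split between them or lost, so copies are named together below. The sequences that follow are the segments on which the results turn, printed 5′ to 3′ from the GENCODE M21 transcripts as the last 300 coding bases of each; the coordinates are those of the whole gene. The lambda pair Iglv1 (chr16:19085017-19085500, minus strand) and Iglv2 (chr16:19260401-19260859, minus strand) shows how alike copies are. They differ at 11 of 351 coding bases, an identity of 96.9%, and the capitals mark the 8 that lie in the printed stretch.
Iglv1: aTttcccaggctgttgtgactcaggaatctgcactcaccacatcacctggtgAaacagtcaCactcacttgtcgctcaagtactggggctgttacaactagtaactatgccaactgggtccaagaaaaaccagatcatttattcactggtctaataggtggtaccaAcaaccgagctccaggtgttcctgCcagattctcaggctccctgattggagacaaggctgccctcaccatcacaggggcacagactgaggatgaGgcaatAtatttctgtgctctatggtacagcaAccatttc
Iglv2: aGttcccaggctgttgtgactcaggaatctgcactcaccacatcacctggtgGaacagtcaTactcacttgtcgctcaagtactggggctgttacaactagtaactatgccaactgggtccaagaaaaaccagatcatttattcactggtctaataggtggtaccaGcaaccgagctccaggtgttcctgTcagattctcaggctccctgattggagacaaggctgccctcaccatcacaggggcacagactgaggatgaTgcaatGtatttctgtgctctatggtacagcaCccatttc
The next sequences are the segment with the highest count in WT replicate 2 (Ighv6-6, chr12:114434788-114435244, minus strand), the kappa segment with the highest count in both knockout libraries (Igkv1-117, chr6:68121046-68121827, plus strand), a segment seen in the knockout libraries only (Igkv9-123, chr6:67954228-67954714, minus strand) and the tested segment with the most negative fold change (Ighv9-4, chr12:114299961-114300389, minus strand). Capitals mark the last in-frame cysteine codon, a conserved residue near the 3′ end of the segment. Such a codon stood within the last 30 bases of 160 of the 161 coding sequences.
Ighv6-6: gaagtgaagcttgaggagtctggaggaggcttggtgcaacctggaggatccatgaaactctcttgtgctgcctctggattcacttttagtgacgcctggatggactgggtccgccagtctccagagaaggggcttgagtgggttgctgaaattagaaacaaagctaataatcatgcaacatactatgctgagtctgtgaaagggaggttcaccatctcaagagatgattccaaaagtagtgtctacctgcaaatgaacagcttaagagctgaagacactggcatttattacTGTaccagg
Igkv1-117: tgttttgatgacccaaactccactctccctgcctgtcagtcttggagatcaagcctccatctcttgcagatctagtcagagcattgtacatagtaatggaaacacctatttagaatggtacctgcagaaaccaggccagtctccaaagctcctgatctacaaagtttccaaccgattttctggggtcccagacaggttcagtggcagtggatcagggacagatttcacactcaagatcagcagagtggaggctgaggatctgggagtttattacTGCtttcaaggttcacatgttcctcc
Igkv9-123: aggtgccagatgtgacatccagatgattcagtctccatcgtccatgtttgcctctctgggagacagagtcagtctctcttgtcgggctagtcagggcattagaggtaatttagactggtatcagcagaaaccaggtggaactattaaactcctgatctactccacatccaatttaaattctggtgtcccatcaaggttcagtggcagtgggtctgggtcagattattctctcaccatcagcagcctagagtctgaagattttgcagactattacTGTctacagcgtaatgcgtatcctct
Ighv9-4: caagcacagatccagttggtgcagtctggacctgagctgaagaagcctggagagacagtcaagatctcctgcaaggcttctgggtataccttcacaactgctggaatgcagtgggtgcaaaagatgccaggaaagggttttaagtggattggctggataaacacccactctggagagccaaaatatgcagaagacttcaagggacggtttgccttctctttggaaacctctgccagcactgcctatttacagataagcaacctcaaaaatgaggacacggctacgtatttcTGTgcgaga

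The libraries held 8181193 to 12199709 counts over the listed genes, so 1 count stood for 0.0815 to 0.123 CPM (counts scaled by library size with TMM factors) and 3 counts, the limit that a count of 0 allows, for 0.244 to 0.369 CPM. Itch itself, the check of the labels, measured 204 and 183 CPM in WT but 11.9 and 13.4 CPM in Itch KO. WT replicate 1 stood apart from the other 3 libraries in 7 keratin and skin-type genes (squamous epithelium), which summed to 589 CPM there and to 13.1 to 17.2 CPM elsewhere. The same library had the lowest V segment level. The part of this difference in the results was not tested, and values against each WT library are given where they differ.

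V segment transcripts were more abundant in both Itch KO libraries than in either WT library. The 167 genes summed to 825 and 6729 counts in WT replicates 1 and 2, and to 10824 and 13671 counts in Itch KO replicates 1 and 2. As a share of the listed counts this was 0.00853% (95% Wilson interval 0.00797% to 0.00913%), 0.0552% (0.0539% to 0.0565%), 0.132% (0.130% to 0.135%) and 0.144% (0.142% to 0.147%). These intervals cover counting error only. In CPM the sums were 88.0, 548, 1330.0 and 1412. The knockout libraries lay close together, while the WT libraries lay further apart, as a ratio, than WT replicate 2 and the knockout libraries. The means were 318 ± 326 CPM in WT and 1371 ± 58.0 CPM in Itch KO (SD, n = 2 each), a ratio of 4.31. Against WT replicate 1 alone the ratio was 15.6, and against WT replicate 2 alone 2.50. With 2 against 2 libraries the smallest two-sided p of an exact permutation test is 0.333, so no permutation test of such sums could pass, and no other test was run on them.

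All 3 loci were higher in both knockout libraries, kappa by more than the heavy chain. Kappa V segments, the light chain of most mouse antibodies, summed to 46.9 and 273 CPM in WT and to 858 and 907 CPM in Itch KO, a ratio of means of 5.52. Lambda V segments summed to 5.01 and 25.6 against 83.2 and 76.0 CPM, a ratio of 5.20. Heavy chain V segments summed to 36.1 and 249.9 against 389 and 429 CPM, a ratio of 2.86. Against WT replicate 2 alone these ratios were 3.23, 3.11 and 1.64. The kappa part of all V counts was 53.3% and 49.8% in WT and 64.5% and 64.2% in Itch KO, the heavy part 41.0% and 45.6% against 29.2% and 30.4%, and the lambda part 5.70% and 4.67% against 6.25% and 5.38%. The Wilson interval of the kappa part was widest in WT replicate 1, at 49.9% to 56.7%, and did not reach the lowest bound in Itch KO, 63.4%. The ratio of kappa to heavy V counts was thus 1.30 and 1.09 in WT and 2.20 and 2.11 in Itch KO, with no overlap. Igkc and the summed heavy chain constant genes, given below, showed the reverse order. The ratio of lambda to kappa V counts overlapped, at 0.107 and 0.0938 against 0.0970 and 0.0838.

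Nearly the whole listed set of V segments was detected in knockout mucosa. At least 1 count was found for 100 and 142 of the 167 segments in the WT libraries and for 161 and 166 in the Itch KO libraries. All 80 kappa segments were present in both knockout libraries, against 50 and 72 in WT, and 78 and 83 of the 84 heavy chain segments, against 47 and 67. The 3 lambda segments were present in every library. Deeper V sampling finds more segments, so each library was also thinned to the 825 V counts of WT replicate 1. The expected numbers detected were then 100, 112, 140.3 and 143, still without overlap between the groups. With at least 10 counts required, the numbers were 23 and 100 against 149 and 153, and with near-identical copies merged to 119 features they were 75 and 98 against 114 and 118.

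Use of the segments was also more even in Itch KO. Pielou's evenness, the Shannon entropy divided by its largest possible value for the number detected, so that 1 means equal use, was 0.844 and 0.883 in WT and 0.935 and 0.940 in Itch KO. The effective number of segments, the number of equally used segments that would give the same Simpson diversity, was 32.2 and 61.2 against 95.6 and 104.6. The 10 most used segments held 49.1% and 29.0% of V counts in WT but 18.8% and 16.4% in Itch KO. To reach 50% of V counts took 11 and 22 segments in WT and 36 and 40 in Itch KO. The order held in each locus: evenness was 0.814 and 0.876 against 0.924 and 0.922 for heavy chain segments and 0.811 and 0.852 against 0.953 and 0.962 for kappa segments. The most used segment differed between the WT libraries, being Igkv10-96 with 67 counts in replicate 1 and Ighv6-6 with 229 in replicate 2. In both knockout libraries it was Iglv1, with 342 and 356 counts.

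**Figure D1:**
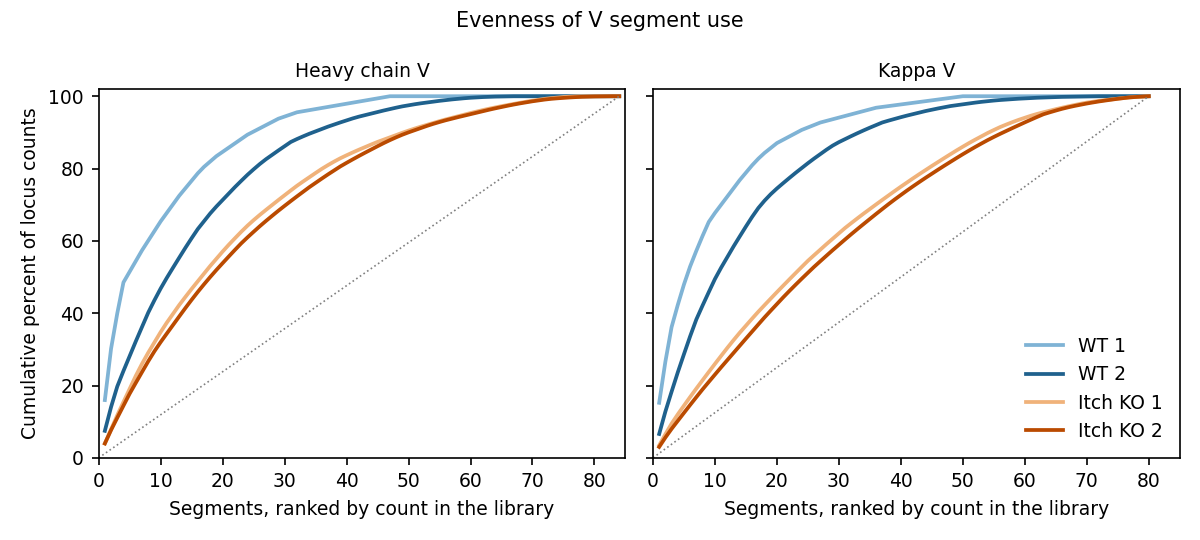
Cumulative percent of the V counts of the locus (vertical axis) against the rank of the segment by count (horizontal axis), 1 line per library. Heavy chain and kappa segments are drawn in separate panels. Pooled over all loci, the first 10 segments hold 49.1% and 29.0% of V counts in WT and 18.8% and 16.4% in Itch KO. These pooled values are not drawn.

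Segment by segment, the difference was spread over most of the set. Of the 167 segments 127 had more CPM in both Itch KO libraries than in both WT libraries, where 27.9% of all 19308 listed genes did. These were 75 of 80 kappa, 49 of 84 heavy chain and all 3 lambda segments. Only 4 were lower in both knockout libraries, where 25.8% of listed genes were, all of them heavy chain: Ighv1-62-3, Ighv1-72, Ighv1-81 and Ighv9-4. Ighv1-62-3 and Ighv1-72 are 99.1% identical, and their group of 5 copies (with Ighv1-53, Ighv1-55 and Ighv1-64) overlapped between the groups, at 3.31 and 26.6 against 8.60 and 13.9 CPM. With near-identical copies merged, 92 of 119 features were higher in both knockout libraries, 2 were lower (Ighv1-81 and Ighv9-4) and 25 overlapped. The other 36 single segments, 31 of them heavy chain, overlapped between the groups. Set against WT replicate 2 alone, 127 segments were higher (37.8% of listed genes) and 23 lower (38.7%), 22 of the 23 being heavy chain. Set against WT replicate 1 alone, 155 were higher (37.8%) and 5 lower (36.6%).

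**Figure D2:**
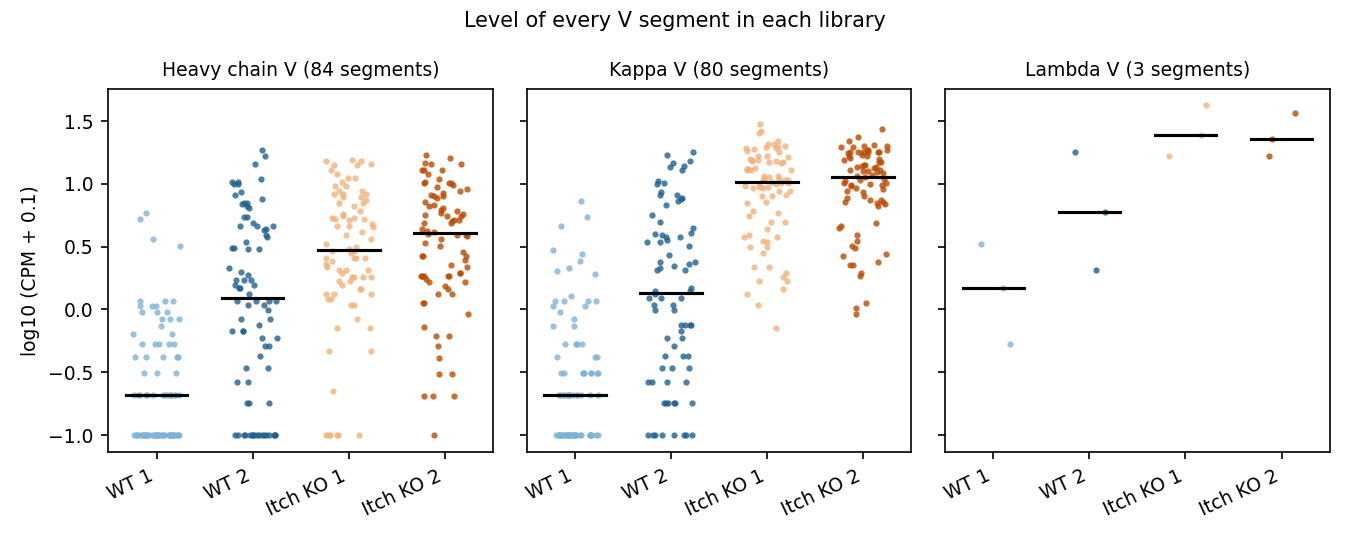
Level of each V segment on a log10 scale of CPM plus 0.1 (vertical axis), by locus and library; each point is 1 segment and the black bar is the median. Points at the bottom have 0 counts, as 67 of the 167 segments do in WT replicate 1 and 1 does in Itch KO replicate 2.

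In the fit across all genes 152 of the 167 segments passed the filter on low counts. The filter asks for about 10 counts in at least 2 libraries. In WT replicate 1 only 23 of the 167 segments had at least 10 counts, so most tested segments needed a knockout library to pass. Of the tested segments 17 had no count in either WT library. Ighv1-62-3, Ighv1-72 and Ighv1-81, which were lower in both knockout libraries, were not tested. Summaries over tested segments are therefore descriptions and carry no support. edgeR's quasi-likelihood test called 0 of the 152 at a Benjamini-Hochberg adjusted p below 0.05 (background 0.0% of 16956 genes in each direction). The smallest edgeR adjusted p of a segment was 0.122. Itch, the gene that the knockout mice lack, had the smallest edgeR adjusted p of all genes, 0.0922, and was not called either. At an unadjusted p below 0.05 there were 78 higher segments (background 10.2%) and 1 lower (background 9.52%), and limma voom called 0. DESeq2 called 55 segments higher (background 5.24%) and 0 lower (background 4.76%), of which 21 were heavy chain, 32 kappa and 2 lambda. The number of DESeq2 calls moved whichever library was left out. Such fits leave 1 library in a group, so their calls are not given. The median log2 fold change of tested segments was 3.07 against 0.01 for all tested genes, and 143 of 152 were positive. It was 2.71 for heavy chain, 3.19 for kappa and 2.69 for lambda segments. Without WT replicate 1 the median over all tested segments was 2.27 and without WT replicate 2 it was 6.47.

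The 3 lambda segments can be followed one by one. Iglv1, the main lambda segment of laboratory mice, had 30 and 218 counts in WT and 342 and 356 in Itch KO (3.20, 17.8, 42.0 and 36.8 CPM). Its near-identical copy Iglv2 had 13 and 72 against 199 and 220 counts. The more distant Iglv3, 62.4% identical to Iglv1, had 4 and 24 against 136 and 160. Both knockout libraries were above both WT libraries for each segment, and WT replicate 1 was the lowest each time. The log2 fold changes were 1.90 (SE 0.84) for Iglv1, 2.69 (SE 0.79) for Iglv2 and 3.76 (SE 0.85) for Iglv3. edgeR's adjusted p was 0.308, 0.199 and 0.151 in that order, and DESeq2 called Iglv2 (adjusted p = 0.0113) and Iglv3 (adjusted p = 0.000584) but not Iglv1 (adjusted p = 0.117). Iglv1 and Iglv2 together, which avoids the split of reads between the copies printed above, had 43 and 290 against 541 and 576 counts.

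Among kappa segments the highest mean level belonged to Igkv1-117, with 42 and 179 counts in WT and 242 and 265 in Itch KO (log2 fold change 1.58, SE 0.65, edgeR adjusted p = 0.283). Its copy Igkv1-110, 97.2% identical, had 17 and 207 against 205 and 228, and the pair summed to 59 and 386 against 447 and 493. Igkv10-96 had 67 and 122 against 179 and 174 counts, and with its copies Igkv10-94 and Igkv10-95 the sum was 76 and 206 against 361 and 354. Both groups of copies were higher in both knockout libraries. Igkv5-48 had 0 and 221 against 155 and 210 counts, and Igkv5-43 with Igkv5-45 had 29 and 261 against 176 and 264. For the latter pair WT replicate 2, at 21.3 CPM, was close to the knockout libraries, at 21.6 and 27.3 CPM, and WT replicate 1 was low for all 3 segments.

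Of the 5 heavy chain segments with the highest mean level, the Ighv6 pair did not separate the groups. Ighv6-6 had 8 and 229 counts in WT and 105 and 98 in Itch KO, and Ighv6-3 of the same family had 7 and 202 against 90 and 99. WT replicate 2 was the highest library for both and WT replicate 1 the lowest. Their log2 fold changes were 0.23 (SE 1.34) and 0.30 (SE 1.33), with edgeR adjusted p of 0.934 and 0.913, and without WT replicate 1 they turned to -0.68 and -0.61. Ighv5-17 had 0 and 121 against 124 and 139 counts, and Ighv7-3 had 29 and 122 against 90 and 141. Ighv10-1 had 1 and 66 against 125 and 124 counts, and with its copy Ighv10-3, 96.7% identical, the sum was 4 and 86 against 139 in each knockout library. In CPM Ighv5-17, Ighv7-3 and Ighv10-1 were higher in both knockout libraries, Ighv7-3 by the smallest margin, 11.1 against 9.94 CPM.

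At the ends of the range stood segments that were chosen for their values and are given as a description. Ighv1-14 had 71 and 123 counts in Itch KO and 0 in each WT library, at least 78.5-fold higher when 3 counts in the WT group are taken as the floor. Igkv9-123 had 0 and 0 against 107 and 71 counts, at least 72.1-fold higher, and Ighv2-5 had 0 and 0 against 46 and 78, at least 50.2-fold higher. Ighv2-5 with its copies Ighv2-2 and Ighv2-4 summed to 0 and 14 against 186 and 228. In all, 17 segments (12 heavy chain and 5 kappa) had at least 10 counts in both knockout libraries and 0 in both WT libraries, where 0.171% of listed genes did. With near-identical copies merged, among them Ighv1-62-2 with Ighv1-71 and Ighv1-20 with Ighv1-37, this held for 14 of 119 features. At the other end, Ighv9-4 had 54 and 126 counts in WT and 16 in each knockout library, which is 5.76 and 10.3 against 1.97 and 1.65 CPM. Its log2 fold change was -2.14 (SE 0.57), with an edgeR adjusted p of 0.179. Ighv1-22 had 10 and 84 against 8 and 12 counts, but its group of 5 copies (Ighv1-18, Ighv1-19, Ighv1-22, Ighv1-26 and Ighv1-34) summed to 22 and 241 against 155 and 184, and the log2 fold change went from -1.83 for the single gene to 0.79 for the group. Ighv1-39 had 1 and 45 against 6 and 13 counts, and only WT replicate 2 was high.

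Taken singly, some segments of the Ighv1 family had counts in WT and next to none in Itch KO. Ighv1-36 had 48 counts in WT replicate 1 and 0 in the other 3 libraries, and it was the only segment at 0 in both knockout libraries. Ighv1-76 had 126 counts in WT replicate 2 and 2, 0 and 4 in the others. Ighv1-62-3 had 5 and 52 against 1 in each knockout library, but its group of 5 copies summed to 31 and 326 against 70 and 135. Ighv1-59 and Ighv1-78 were further cases, but Ighv1-59 with its near-identical copy Ighv1-69 summed to 4 and 53 against 14 and 13. Only these 5 segments had at least 10 counts in a WT library and at most 4 in both knockout libraries. How many of all listed genes did so was not computed, so their number is a description only. The reverse case within the knockout group was Ighv15-2, with 49 counts in Itch KO replicate 1 against 1 in replicate 2. None of these 6 passed the filter on low counts, and they were chosen after their values were seen.

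Families of segments took different shares of their locus. The Ighv1 family (44 listed segments) held 43.8% and 45.6% of heavy chain V counts in WT and 34.5% and 36.5% in Itch KO. The Ighv2 family (8 segments) held 1.78% and 2.58% against 11.4% and 12.6%, and Ighv8 (5 segments) 1.18% and 1.27% against 8.28% and 8.33%. Ighv9 (3 segments) went the other way, with 19.5% and 9.78% against 2.56% and 2.46%. The widest Wilson interval of a heavy chain family share was 5.26 percentage points on each side in WT replicate 1 and at most 1.76 in the other libraries. Of 14 heavy chain families 7 had a higher share in both knockout libraries, 4 a lower share and 3 overlapped.

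Kappa family shares overlapped between the groups for 8 of 16 families. The largest, Igkv4 with 20 segments, held 10.5% and 20.0% of kappa V counts in WT and 19.7% in each knockout library. Igkv9 (3 segments) held 0.23% and 1.58% against 4.60% and 3.87%, and Igkv12 (6 segments) 3.64% and 4.39% against 6.95% and 7.39%. Igkv1 (7 segments) held 14.5% and 14.7% against 10.1% and 9.97%, and Igkv10 (3 segments) 17.3% and 6.15% against 5.17% and 4.03%. Of the other 8 families, 6 had a higher share in both knockout libraries and 2 a lower share. Igkv11, with the single segment Igkv11-125, had 1 and 2 counts in WT and 104 and 145 in Itch KO.

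**Figure D3:**
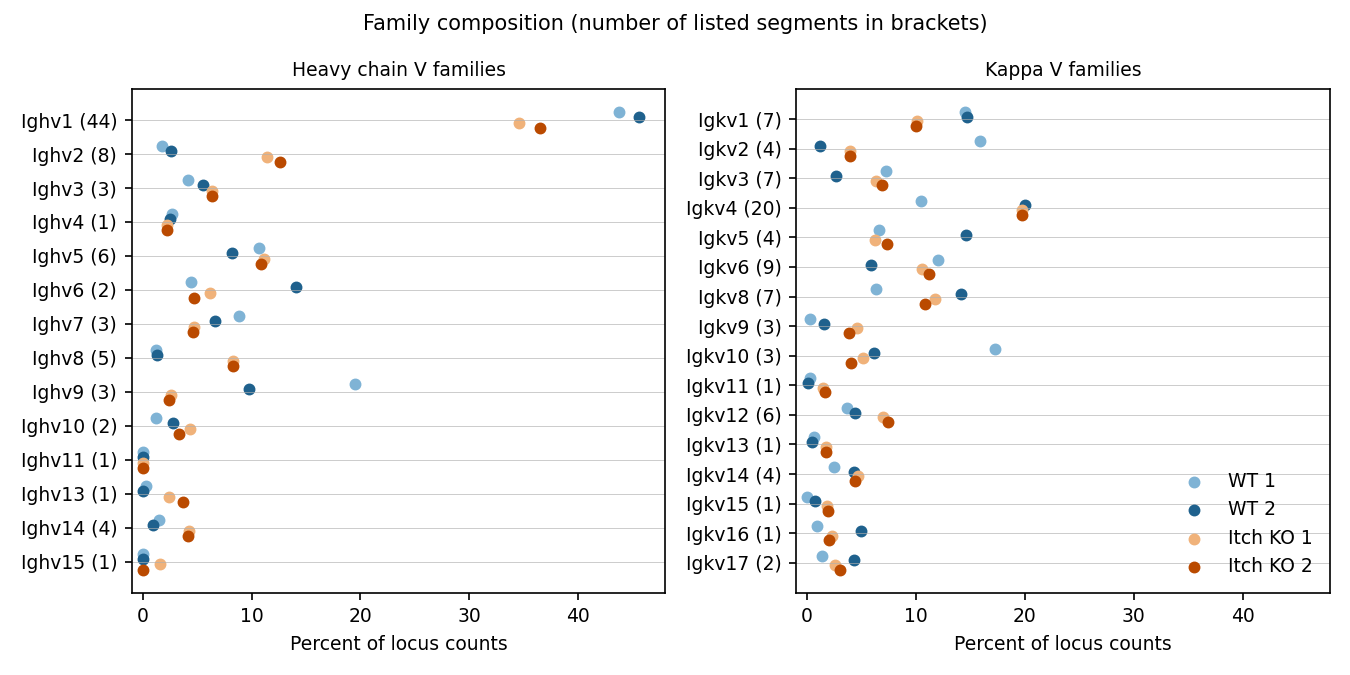
Share of heavy chain V counts (Ighv families) and of kappa V counts (Igkv families) in percent, by family and library; each point is 1 library. The Ighv2 and Ighv8 families lie higher in both Itch KO libraries (11.4% and 12.6%, 8.28% and 8.33%) and Ighv9 lower (2.56% and 2.46%) than in both WT libraries.

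Shares by position along the locus lay close together, without overlap only for heavy chain segments. The 40 placed heavy chain segments nearest to the diversity and joining segments held 61.8% and 62.5% of heavy chain V counts in WT and 67.1% and 65.3% in Itch KO. The 39 nearest kappa segments held 44.0% and 52.2% against 50.1% and 51.8%, which overlap.

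The mixture of segments was nearly the same in the knockout libraries and differed between the WT libraries. Morisita's index, which is near 1 when counts could come from 1 common mixture and 0 when no segment is shared, was 0.985 between the Itch KO libraries and 0.529 between the WT libraries. Between the groups it ranged from 0.433 to 0.699. The share of V counts held in common was 90.0% in the knockout pair and 50.7% in the WT pair. As a description across segments, which share libraries and depth, the Spearman correlation of shares was 0.948 and 0.539 (167 segments each). For heavy chain segments alone it was 0.918 in the knockout pair, 0.622 in the WT pair and 0.054 to 0.123 between the groups, and for kappa segments 0.919, 0.418 and 0.450 to 0.625. Over all 19308 genes the same correlation was 0.964 and 0.949. The counts of the knockout libraries differed by more than sampling noise. Chi-square per degree of freedom was 23.2 over all genes and 2.69 over V segments. For the WT pair it was 31.1 over all genes and 12.2 over V segments, at fewer V counts. Whether the knockout libraries came from separate animals is not in the labels and was not tested. The 22 listed T cell receptor V segments, recombined by the same machinery in T cells, gave Morisita's indices of 0.989 and 0.815 in these pairs from only 62 to 303 counts per library.

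**Figure D4:**
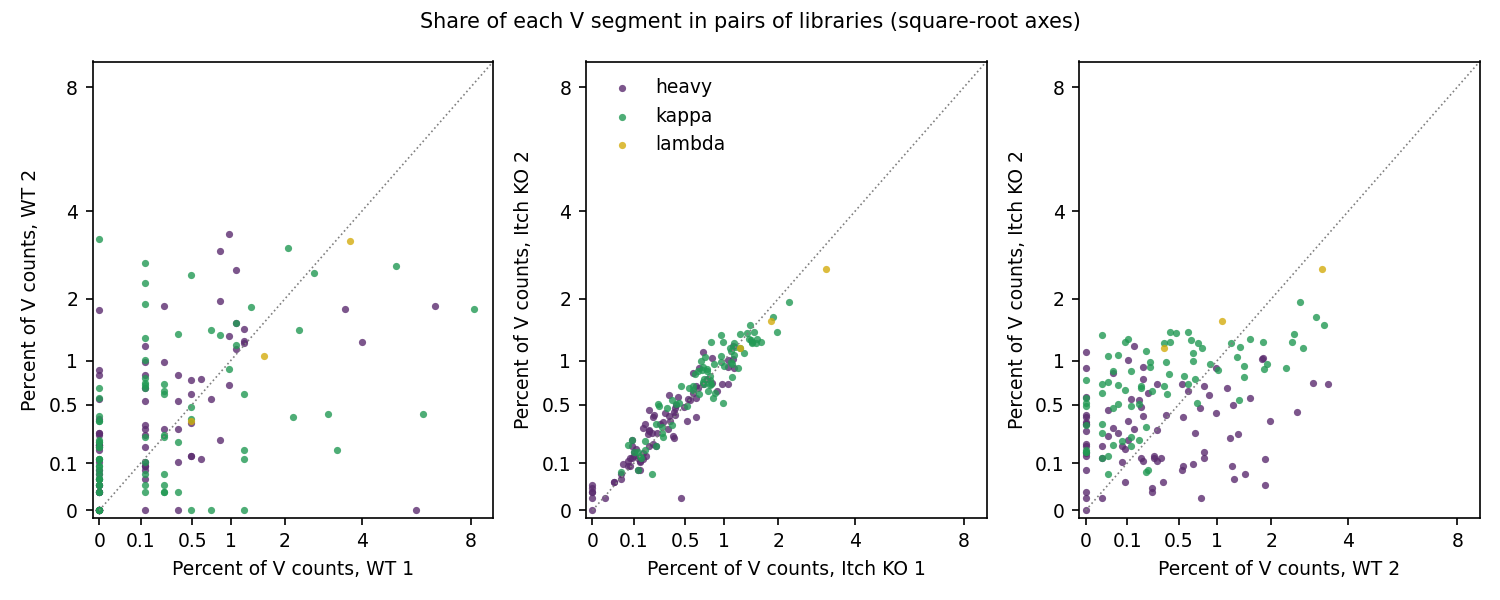
Share of V counts of each segment in percent (square-root axes) in 3 pairs of libraries; each point is 1 segment, and the diagonal is equal use. Points follow the diagonal in the Itch KO pair (Morisita's index 0.985) and scatter widely in the WT pair (0.529) and between WT replicate 2 and Itch KO replicate 2 (0.675).

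The constant genes, to which rearranged V segments are spliced, define the antibody classes. They are also transcribed from germline promoters before class switching, and counts per gene do not tell these transcripts from spliced antibody transcripts. All 9 listed constant genes were higher in both knockout libraries, where 27.9% of listed genes were, with a median log2 fold change of 3.36. Ighm, the constant gene of IgM, had levels of 33.2 and 34.7 CPM in WT and 148 and 138 CPM in Itch KO. The log2 fold change of Ighm was 2.07 (SE 0.12), with an edgeR adjusted p of 0.109. Igha, the constant gene of the IgA of mucosal secretions, had levels of 65.1 and 85.5 against 130.2 and 114 CPM. For Igha the log2 fold change was 0.70 (SE 0.18), with an edgeR adjusted p of 0.179. Both genes separated the groups, Ighm with the narrower spread within each. DESeq2 called 7 of the 9 higher (background 5.24%), all except Igha (adjusted p = 0.0748) and Igkc (adjusted p = 0.108). edgeR called 0 of the 9.

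Constant genes of the switched classes IgG and IgE were low in WT and abundant in Itch KO. Ighe, the constant gene of IgE, had 0 and 2 counts in WT and 570 and 616 in Itch KO, a ratio of 720 with a counting interval of 199 to 5954. Ighg1 had 11 and 87 against 860 and 950 counts, Ighg2b 15 and 144 against 546 and 695, Ighg2c 2 and 15 against 113 and 191, and Ighg3 1 and 15 against 330 and 487. Again WT replicate 2 was above WT replicate 1 for each. Of the heavy chain constant counts, Igha held 64.2% and 60.4% in WT and 22.6% and 20.5% in Itch KO, Ighm 32.7% and 24.5% against 25.7% and 24.9%, Ighg1 1.16% and 5.01% against 18.4% and 17.7%, and Ighe 0% and 0.115% against 12.2% and 11.4%. The constant genes of the IgG classes resemble each other, and reads from shared stretches may be missing from them.

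**Figure D5:**
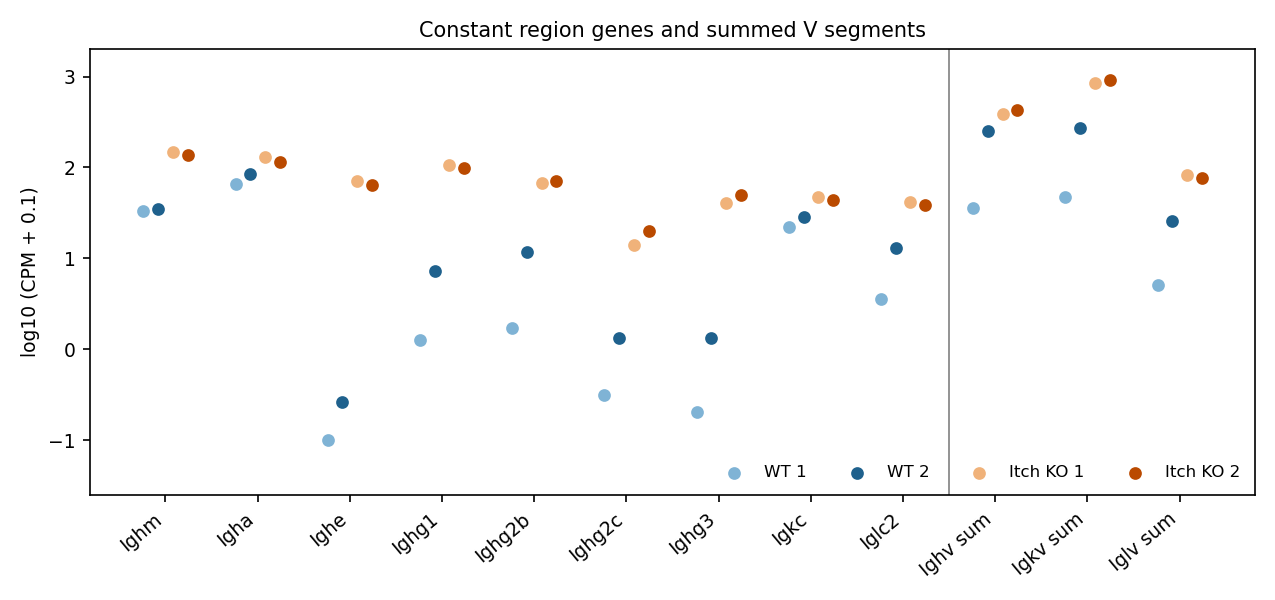
Levels of the constant genes and of the summed V segments of each locus as log10 of CPM plus 0.1 (vertical axis), by library; each point is 1 library. Ighm and Igha are high in all 4 libraries, while Ighe, Ighg1 and Ighg3 lie at most at 7.09 CPM in WT and at least at 40.5 CPM in Itch KO.

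Igkc differed less between the groups than the kappa V segments did. The gene, which encodes the only kappa constant region, measured 21.9 and 28.2 CPM in WT, and 47.6 and 43.4 CPM in Itch KO mucosa. Its log2 fold change was 0.86 (SE 0.23), with an edgeR adjusted p of 0.18. Counts of kappa V segments were 2.15 and 9.68 times those of Igkc in WT and 18.0 and 20.9 times in Itch KO. Heavy chain V counts were 0.356 and 1.76 times the heavy chain constant counts in WT and 0.676 and 0.772 times in Itch KO, which overlap. Summed heavy chain constant counts were 950 and 1738 in WT and 4681 and 5381 in Itch KO. Those of Igkc were 205 and 346 against 387 and 420. At the constant genes the heavy chain thus differed more than kappa, the reverse of the V segments. Per exonic base Igkc had 0.385 and 0.650 counts in WT and 0.727 and 0.789 in Itch KO, and the highest V segment had 0.187, 0.641, 0.875 and 0.910. The highest count per base of any gene longer than about a V segment was 1.65 to 2.08 in the 4 libraries. Whether duplicate reads were removed is not given in the sources used here, and the part of any such upper limit in these ratios was not tested. Iglc2, a lambda constant gene, had 33 and 159 against 342 and 373 counts.

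B cell genes other than immunoglobulins were also higher in both knockout libraries. All 13 listed B cell markers were, where 27.9% of listed genes were, with a median log2 fold change of 4.15, and they summed to 94.0 and 101 CPM in WT and 1016 and 1067 CPM in Itch KO. Cd22, an inhibitory receptor of B cells, was at 9.82 and 5.38 against 133 and 136 CPM. The WT sums depend on Spib, a transcription factor gene of B cells and other cells, at 8.32 and 48.1 CPM in WT. Without it the WT sums were 85.7 and 53.3 CPM against 915 and 960.2 CPM in Itch KO, and 10 of the 12 remaining markers were lower in WT replicate 2 than in WT replicate 1, the reverse of the V segment sums. Of 14 plasma cell genes 12 were higher and 1 lower in both knockout libraries, with a median of 1.30 and sums of 955 and 978 against 1496 and 1467 CPM. The most abundant of them, Edem1, a factor of protein quality control that many cells express, was at 226 and 214 against 280 and 261 CPM. The J chain gene, whose product joins IgA and IgM into polymers, had 293 and 914 against 1044 and 1143 counts, so WT replicate 2 was above replicate 1 in it as in the V segments.

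Other lists give the setting of these values. The counts of genes higher in both knockout libraries are to be read beside the 27.9% of all listed genes. Of 8 listed germinal centre genes 4 were higher in both knockout libraries (median log2 fold change 0.66). Of 5 listed genes of V(D)J recombination and pre-B cells 3 were higher, and the most abundant, Cd93, also an endothelial gene, overlapped at 89.0 and 46.1 against 61.3 and 120.2 CPM. The recombinase gene Rag1 was near 0 throughout, with 0 and 2 counts in WT and 0 in each knockout library. Of 7 genes of IgA transport and IgA-cell homing 3 were higher (median 0.44), and Pigr, the epithelial receptor that carries IgA into the lumen, overlapped at 399.9 and 321 against 438 and 317 CPM. All 11 T cell markers were higher (median 1.38, sums 98.6 and 139 against 272 and 370 CPM), with Lck, a T cell kinase, at 13.7 and 29.99 against 48.7 and 65.1 CPM. The 22 T cell receptor V segments summed to 6.61 and 15.4 against 18.1 and 31.3 CPM. Of 9 epithelial genes none was higher or lower in both knockout libraries, with Cdh1, an adhesion gene, at 376 and 296 against 387 and 285 CPM. Of 7 neutrophil genes 5 were higher, and WT replicate 1 again differed from WT replicate 2, with sums of 217 and 12.9 against 294 and 449 CPM. The part of these cell types in the V segment values was not tested.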

How the data were processed

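RNA of colonic mucosa was sequenced in 4 libraries, 2 WT and 2 Itch KO, grouped by title. The deposited values are the authors' raw counts per gene, and HTSeq 0.6.1, TopHat2, CASAVA 1.8.2 and SAMtools 0.1.19 are named, beside GRCm38 and mm10, in the submitters' processing notes. Whether counting used strand or removed duplicate reads is not given in the sources used here. HTSeq leaves out reads that align to several places by default, and the 3 longer files record 0 such reads, so how reads of near-identical V segments were handled is unknown. The file of WT replicate 1 lists 19308 genes and no summary lines, and the other files list 39179 genes and 5 summary lines. Only genes listed in all 4 files were used, with 97.3% to 97.7% of all counts in the longer files. Reads outside any gene (18.2% to 23.0% of the total) and ambiguous reads (2.67% to 3.03%) were left out.

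The members and the gene lists were chosen with earlier results of these data known. Genes were tested with edgeR 4.0.16 in R 4.3.3 (quasi-likelihood, TMM factors, filterByExpr at a minimum count of 10, a term for group alone), two-sided, with p-values adjusted by Benjamini-Hochberg over 16956 genes and a threshold of 0.05, with 2 residual degrees of freedom and a biological coefficient of variation of 34.8%. DESeq2 1.42.0 and limma voom 3.58.1 were alternatives, with another normalization, no filter, merged copies, a replicate block and each library left out. DESeq2 with each library left out, the counts of non-overlapping segments without a WT library, lower bounds for segments at 0 in WT, the sum of shared parts, non-overlapping segments with copies merged, and B cell markers without Spib were added after seeing the data. Tested on simulated data, edgeR found 6 of 72 genes changed 2-fold, 38 of 64 changed 4-fold and 42 of 64 changed 8-fold. It also called 24 unchanged genes there. The fit of the real data called 0 of 16956 genes, so these simulated rates need not hold for it.

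Counts, shares, evenness and similarity were computed from the counts as deposited. Segments were called near-identical at 95% or more identity over at least 250 aligned bases of GENCODE M21 coding sequence, linked through any member. In 3 cases the symbol in the file differs from that of GENCODE M21 for the same identifier, and 3 members overlap another annotated gene. Named segments were the 5 heavy chain and 5 kappa segments with the highest mean CPM, every lambda segment, the 3 tested segments with the largest and the 3 with the smallest log2 fold change, and every listed constant gene. Marker lists are given by their counts, median and most abundant member, except for 1 member that is not reported here. Any further segment named in the text was picked with its values known.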

Additional observations from a re-analysis of the deposited data

Results flagged for a closer look

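The 3 longer count files hold 52 further V segment genes that are not in the file of WT replicate 1 and entered no comparison. They summed to 53 counts in WT replicate 2 and to 96 and 153 in Itch KO replicates 1 and 2, or 4.32, 11.8 and 15.8 CPM. Signal in both knockout libraries was thus above that in the WT library that could be compared. They made up 0.781%, 0.879% and 1.11% of V counts, and 16, 29 and 28 of them had at least 1 count. The highest single count was 20, for Ighv1-43 in Itch KO replicate 2. With 1 WT library the difference was not tested. Groups of 2 libraries are too small for a test of single outlying libraries.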

How the results depend on the processing

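Over 8 main results, 54 alternative values kept their direction and stayed within 1 SD between replicates or, for counts, within 1.5 times, and 15 went further. DESeq2 called 1696 genes and 55 V segments where edgeR called 0 of each, and 12, 18, 35 and 75 V segments with 1 library left out. The median log2 fold change of tested V segments, 3.07, was 3.91 with limma voom and 2.27 to 6.47 with 1 library left out. The log2 ratio of the summed V share, 2.12, ranged from 1.33 without WT replicate 1 to 4.02 without WT replicate 2. The difference in segments detected, 42.5, was 67.5 from at least 3 counts and 89.5 from at least 10, and 21.5 to 63.5 with 1 library left out. The difference in evenness, 0.074, was 0.260 as 1 minus the Gini coefficient and 0.320 as the Simpson number over the number of members, measures on other scales, and 0.054 to 0.093 with 1 library left out. The log2 ratio of kappa to heavy V counts, 0.85, ranged from 0.73 to 0.98 with 1 library left out. Of 28 named genes 4 changed sign in any of 10 alternatives. With 1 library left out, the log2 fold change ran from -0.68 to 3.73 for Ighv6-6 and from -0.61 to 3.80 for Ighv6-3, from lowest without WT replicate 1 to highest without WT replicate 2, and likewise from -2.58 to 0.059 for Ighv1-22 and from -1.77 to 3.14 for Ighv1-39. With copies merged Ighv1-22 had 0.79, and with limma voom Ighv1-39 had 0.37. The cause was not tested. With the replicate block 0 genes and 0 V segments were called and the median was 3.48. Same-numbered libraries had a correlation of 0.048 of their deviations over all genes, so the numbers were not taken as pairs. Depth limits WT replicate 1 most, where the 825 V counts leave a median of 1 count per segment.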
